A study of Nicotiana tabacum with 12 samples.

Results

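Among the transcripts of tobacco leaves, 58 met a rule for means shifted alike from the wild type in the *DcLCYB1* lines L14 and L15. The same rule held the mean of line L16 near the wild type. These 58 were 45 raised and 13 lowered NiTAB identifiers. Of the 35519 identifiers listed, 12868 averaged 2 CPM or more over the libraries and could be chosen. An identifier here is a gene model of the NiTAB 4.5 tobacco genome, and CPM is its count divided by all counts on identifiers of that library, times 1000000. Members were chosen by a rule on these same data. The ratio of the mean CPM to the wild type had to be at least 1.5 in both L14 and L15, or at most 0.67 in both. The ratio of L16 had to lie between 0.77 and 1.3, and the 6 libraries of L14 and L15 could not overlap the 3 of the wild type. The fold changes and tests of the genotypes given for these members are therefore descriptions of a selected set, and nothing is read from their significance.

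The lines are *Nicotiana tabacum* cv. Xanthi NN expressing the carrot gene *DcLCYB1*, and the wild type is the same cultivar without it. Each of L14, L15 and L16 is a single transgenic line. RNA came from leaves of 5-week-old plants, with 3 biological replicates of each of L14, L15, L16 and the wild type, 12 libraries in all. The labels give the generation of the lines as T4 in one place and T3 in another, and describe sucrose and kanamycin in the germination medium for the lines and the wild type alike. The promoter of the transgene was not given in the sources used here, and the transgene was not analysed here. The 3 lines are compared with the same 3 wild type libraries throughout.

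Lycopene β-cyclase closes the ends of the linear carotenoid lycopene to give β-carotene, which plants convert to xanthophylls. Carotenoids take part in light harvesting and photoprotection in the chloroplast, and they are the precursors of abscisic acid and strigolactones. Comparing several lines of one transgene asks which transcripts move in every line and which move in some lines only. L14 and L15 without L16 is one such pattern. None of the 35519 identifiers was found in the RefSeq table at hand, which describes another tobacco assembly (ASM71507v2), so 0 of the members have a gene name here. For this reason no function, pathway or sequence is given for any of them, and the leaf origin of the RNA could not be checked against marker genes.

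QuantSeq 3′ mRNA-Seq was used, a kit that sequences each transcript at its polyadenylated end, so that long and short transcripts give counts on an equal footing. Counts on identifiers ranged from 12887911 to 24343174 per library, so that 3 counts corresponded to between 0.123 and 0.233 CPM. The lowest count of a member in any library was 17 among the raised and 15 among the lowered. Replicate libraries differed by more than counting error in every pair. The first principal component of 62 spike-in sequences, which are synthetic RNAs of known identity, set the wild type fully apart from L14, L15 and L16, which overlapped one another. It lay between −1.98 and 0.00186 in L14, between −1.14 and 0.517 in L15, between −1.51 and 1.17 in L16, and between 1.37 and 1.71 in the wild type. Every comparison with the wild type also spans this difference. In L16 the component was −1.51, −0.704 and 1.17 in replicates 1, 2 and 3. Replicate 3 of L16 was thus the library of the lines nearest to the wild type. The component held 28.5% of the variance of these spike-ins. Reads outside annotated genes took between 34.5% and 35.4% of a library in L14, between 34.6% and 36.4% in L15, between 33.4% and 35.4% in L16, and between 35.6% and 38.1% in the wild type. The part of either in the values below was not tested, apart from the slope within genotypes given further on.

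Few identifiers that met the limits in L14 and L15 also met the band on L16. Of 1825 identifiers whose mean ratios met the limit for raised in both L14 and L15, 1289 had no overlap with the wild type libraries. Only 45 of these 1289 (3.49%) had an L16 ratio within the band, whereas 1243 (96.4%) lay beyond it on the same side and 1 on the other side. On the lowered side, 654 met both ratios and 483 had no overlap, with 13 (2.69%) in the band, 467 (96.7%) beyond it on the same side and 3 on the other. The median L16 ratio was 2.20 over the 1289 and 0.451 over the 483. The 3 lines share the wild type libraries, so nothing is read from these shares beyond the position of the members, which lie at the edge of the cloud in the plot of L16 against the pair.

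**Figure D1:**
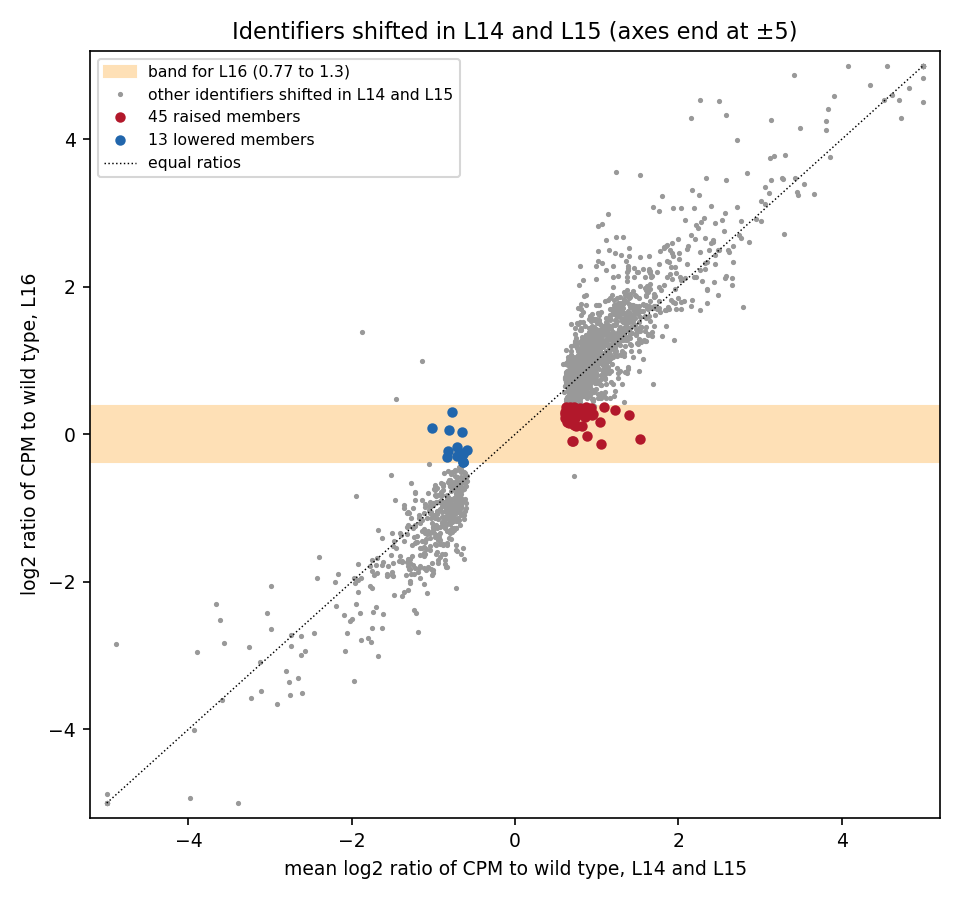
Log2 ratio of CPM to the wild type in L16 (vertical axis) against the mean log2 ratio of L14 and L15 (horizontal axis), for identifiers with both ratios past the limits and no overlap with the wild type; the shaded band is the L16 limit of 0.77 to 1.3, and points beyond 5 on either axis are drawn at 5. The 45 raised and 13 lowered members lie in the band, while 1243 and 467 other identifiers lie beyond it on the side of L14 and L15.

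The same rule was applied with the lines exchanged. In L14 and L16 without L15 it found 19 raised and 9 lowered identifiers, and in L15 and L16 without L14 it found 30 raised and 68 lowered. With library sizes corrected by TMM, a scaling that sets the bulk of transcripts level between libraries, L14 and L15 without L16 gave 22 raised and 23 lowered, L14 and L16 without L15 gave 14 and 23, and L15 and L16 without L14 gave 42 and 57. The share of raised identifiers among the members of L14 and L15 without L16 was 77.6% by CPM and 48.9% with TMM. These sets share libraries, and their sizes were not tested against each other. The scalings differ in where they place the bulk of the transcripts. Over all 12868 identifiers, the median log2 ratio to the wild type was 0.13 for L14, 0.08 for L15 and 0.06 for L16 by CPM, against 0.01, 0.01 and 0.00 with TMM. The raised members had median log2 ratios of 0.75 (L14), 0.74 (L15) and 0.26 (L16) by CPM, and 0.62, 0.67 and 0.18 with TMM. For the lowered members it was −0.70, −0.66 and −0.23 by CPM, and −0.84, −0.73 and −0.28 with TMM. Both scalings therefore keep the order L14 and L15 farther from the wild type than L16, and TMM moves every value down.

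Raised members had ratios to the wild type between 1.501 and 2.92 in L14 (median 1.68), between 1.501 and 2.86 in L15 (median 1.67), and between 0.916 and 1.298 in L16 (median 1.19). As these are RNAs of whole leaves, more cells of a type and more RNA per cell cannot be told apart. Most changes were modest: only 3 of 45 had a ratio of at least 2 in both lines, 9 in L14 and 4 in L15. The members were low to moderate in level, with means between 2.05 and 164 CPM and a median of 8.69 CPM, against a median of 11.3 CPM over all 12868 identifiers. Of the 45, 20 had a mean of at least 10 CPM and 13 a mean under 5 CPM. By CPM, L14 was farther from the wild type than L15 in 29 of 45, and the ratio of L15 to L14 ran from 0.732 to 1.25 (median 0.959). Over all identifiers with at least 2 CPM the median of that ratio was 0.974. With TMM the order of the medians turned, with log2 ratios of 0.62 in L14 and 0.67 in L15. The L16 mean was nearer to the wild type by construction. It lay above the wild type mean in 40 of 45 members. It covered a median of 25.7% of the distance from the wild type mean to the mean of L14 and L15. The selection favours this side: of the 1289 candidates, 1243 lay above the band and 1 below it. The median L16 ratio over all identifiers with at least 2 CPM was 1.04. Nothing is therefore read from the side on which L16 lay. The ratio of L16 was above 1.2 in 21 members, and lay between 0.9 and the reciprocal of 0.9 in only 8.

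Library by library, the raised members' median fold to the wild type mean was 1.92, 1.66 and 1.59 in the L14 libraries, 1.66, 1.77 and 1.56 in those of L15, 1.24, 1.37 and 0.989 in those of L16, and 1.09, 1.04 and 0.912 in the wild type, for replicates 1, 2 and 3. The corresponding medians over all 12868 identifiers were 1.13, 1.07 and 1.04 for L14, 1.06, 1.09 and 1.01 for L15, 1.02, 1.14 and 0.947 for L16, and 1.05, 1.04 and 0.889 in the wild type. By CPM, the members' medians in replicates 1 and 2 of L16 lay between the other lines and the wild type, and that in replicate 3 at the wild type level. The medians over all identifiers took the same order in L16, with replicate 2 highest and replicate 3 lowest. The order of the L16 replicates is therefore not particular to the members. L16 replicate 3 was the lowest of its genotype in 31 of 45 raised members (68.9%), against 51.6% of all 12868 identifiers. Wild type replicate 3 was the lowest of its genotype in 24 of 45 (53.3%), against 59.0% of all. By single libraries, no L16 library exceeded the wild type range in 6 members, 1 did in 20, 2 did in 18, and all 3 did in 1 (Nitab4.5_0000743g0250). The 3 L16 libraries stayed below all 6 libraries of L14 and L15 in 17 members. In 6 members both held, so that L16 was apart from the pair and never above the wild type range. The limits on the means favour such an order, and these overlap counts were not taken over all 12868 identifiers. Nothing is read from their size.

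**Figure D2:**
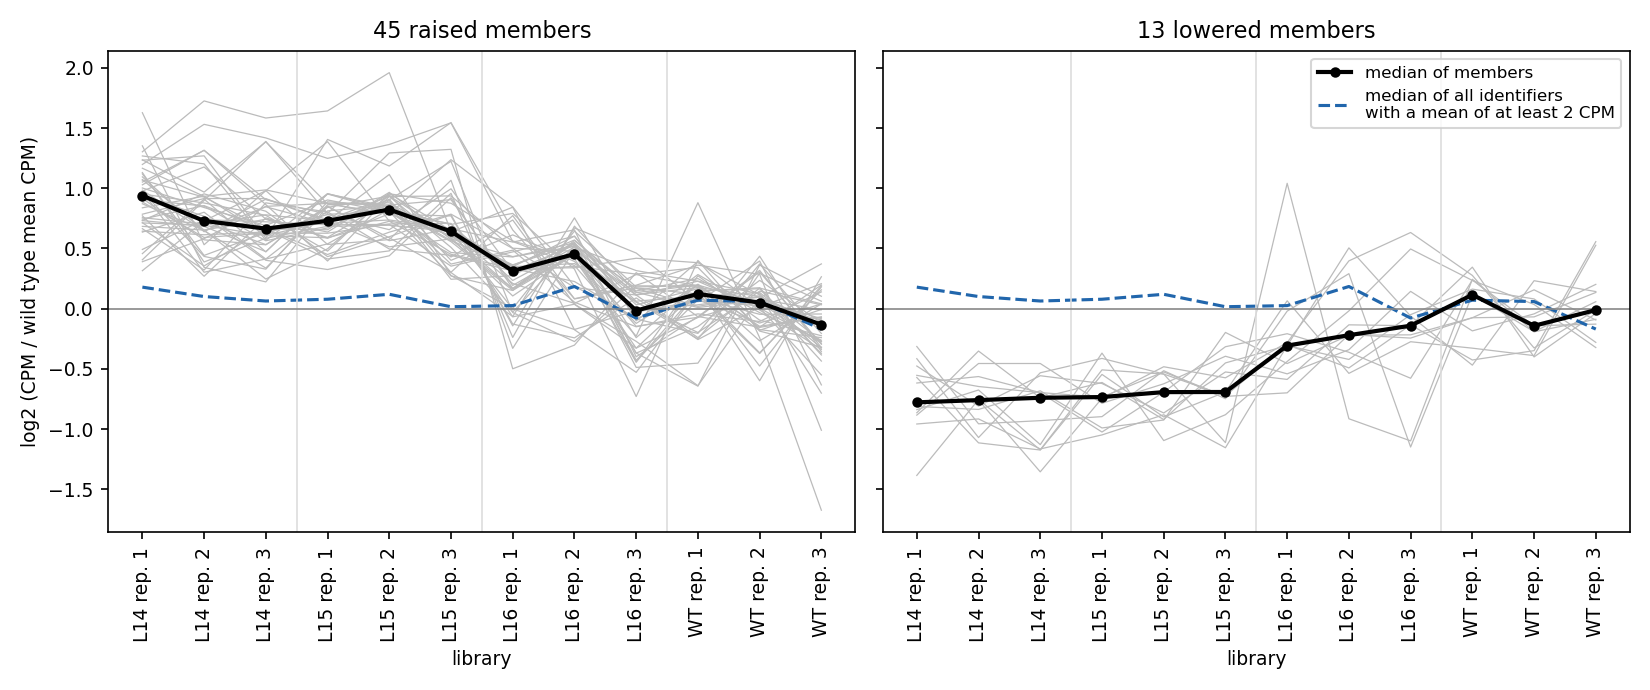
Log2 of CPM over the wild type mean in each of the 12 libraries, for the 45 raised members (left) and the 13 lowered members (right); thin lines are members, the black line is their median, and the dashed blue line is the median of all 12868 identifiers. The raised median falls to 0.989-fold in L16 replicate 3 but is 1.24-fold and 1.37-fold in L16 replicates 1 and 2, and the lowered median is between 0.808-fold and 0.906-fold in the L16 libraries. The median of all identifiers is 1.02-fold, 1.14-fold and 0.947-fold in L16 replicates 1, 2 and 3.

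The most abundant raised member was Nitab4.5_0001843g0100. It was measured at 241, 205 and 213 CPM in L14, 197, 195 and 201 CPM in L15, 122.9, 150.4 and 118 CPM in L16, and 123.1, 111 and 88.0 CPM in the wild type. The libraries of L14 and L15 all lay above those of L16, and the L16 libraries overlapped the wild type at their lower end. Its log2 fold change in edgeR was 0.91 ± 0.12 (SE) in L14, 0.81 ± 0.12 in L15 and 0.21 ± 0.12 in L16 against the wild type, and −0.69 ± 0.12 in L16 against L14. Nitab4.5_0002436g0080 was measured at 136, 134 and 126 CPM in L14, 125, 137 and 113 CPM in L15, 104, 96.8 and 78.3 CPM in L16, and 88.0, 80.2 and 80.3 CPM in the wild type. L16 replicates 1 and 2 were above every wild type library and replicate 3 below every one. Its ratio to the wild type was 1.59 in L14, 1.51 in L15, which is just past the limit, and 1.12 in L16, which is inside the band. It was no longer a member with TMM scaling. The third by level, Nitab4.5_0000605g0110, was measured at 82.6, 51.7 and 58.9 CPM in L14, 65.4, 59.9 and 75.8 CPM in L15, 47.2, 48.5 and 46.4 CPM in L16, and 48.2, 33.7 and 32.2 CPM in the wild type. Here the L16 libraries were close together, beside the highest wild type library, and below all of L14 and L15.

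Nitab4.5_0003885g0100 had the largest ratios among the raised members in L14, 2.92, and in L15, 2.86, beside 0.958 in L16. It was measured at 19.3, 25.9 and 23.4 CPM in L14, 24.4, 30.4 and 12.2 CPM in L15, 7.80, 6.93 and 7.73 CPM in L16, and 7.99, 8.35 and 7.11 CPM in the wild type. The 6 libraries of L16 and the wild type lay within a narrow range of each other, and every library of L14 and L15 lay above them, with L15 replicate 3 the nearest. The log2 fold change was 1.42 ± 0.25 (SE) in L14, 1.42 ± 0.25 in L15 and −0.12 ± 0.25 in L16 against the wild type. It stayed a member with either other scaling and when any of the 12 libraries was left out. Besides it, only Nitab4.5_0000502g0100 did so among the raised, an identifier singled out after its values were seen. This one was measured at 20.7, 18.8 and 15.7 CPM in L14, 15.6, 19.3 and 14.7 CPM in L15, 11.1, 13.6 and 7.26 CPM in L16, and 11.9, 9.26 and 8.46 CPM in the wild type. Its L16 libraries spread on both sides of the wild type libraries and stayed below all of L14 and L15.

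Nitab4.5_0001668g0150 followed in size of ratio, at 2.62 in both L14 and L15, with 1.203 in L16. It was measured at 16.24, 20.5 and 18.9 CPM in L14, 16.8, 18.2 and 20.6 CPM in L15, 10.4, 9.08 and 6.04 CPM in L16, and 13.0, 5.99 and 2.22 CPM in the wild type. L14 and L15 were each tight and the wild type was not, with L16 wholly inside the wild type range and wild type replicate 3 the lowest of all. Without wild type replicate 1, or without L16 replicate 3, it was not a member. Nitab4.5_0000154g0290 was measured at 5.25, 5.39 and 3.35 CPM in L14, 5.92, 5.08 and 6.52 CPM in L15, 3.51, 2.37 and 2.56 CPM in L16, and 2.87, 2.72 and 1.109 CPM in the wild type. L14 replicate 3 lay below L16 replicate 1, so these lines overlapped, and leaving out any of 4 libraries (L16 replicates 2 and 3, wild type replicates 1 and 2) removed it from the set.

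**Figure D3:**
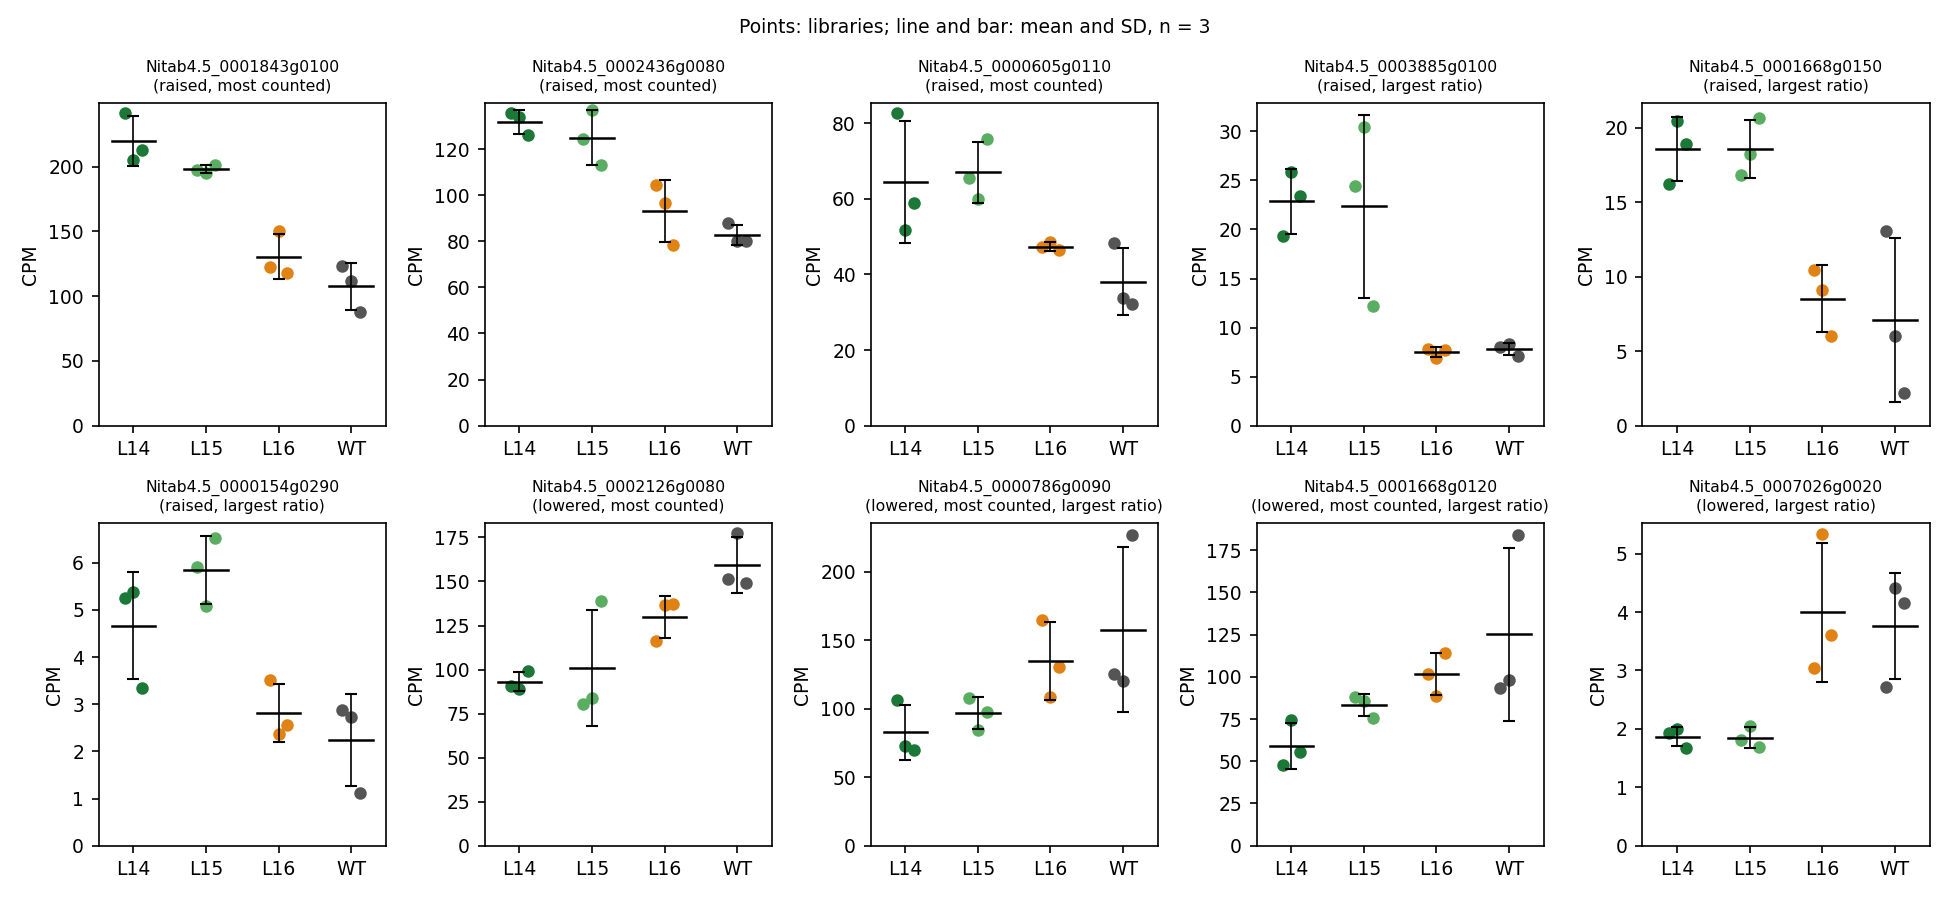
CPM of the 10 members named by rule in each library (points), with the mean and SD of each genotype (n = 3; line and bar), in L14, L15, L16 and the wild type; every vertical axis starts at 0. L16 lies at the wild type level in Nitab4.5_0003885g0100 and Nitab4.5_0007026g0020, and between the pair and the wild type in Nitab4.5_0001843g0100 and Nitab4.5_0002126g0080.

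In 5 raised members the L16 mean was below the wild type mean. Apart from Nitab4.5_0003885g0100 these were Nitab4.5_0001231g0050, Nitab4.5_0005743g0040, Nitab4.5_0000175g0030 and Nitab4.5_0001517g0020, named after their values were seen, with L16 ratios of 0.916, 0.982, 0.936 and 0.941. The same 5 and Nitab4.5_0001668g0150 are the 6 whose L16 libraries were below all of L14 and L15 and never above the wild type range. Nitab4.5_0001231g0050 was measured at 9.26, 13.0 and 18.3 CPM in L14, 12.1, 17.1 and 17.5 CPM in L15, 4.94, 5.67 and 8.60 CPM in L16, and 6.67, 8.71 and 5.59 CPM in the wild type. Its 3 replicates were spread widely in each line, with replicate 3 the highest in L14, L15 and L16 and the lowest in the wild type. Nitab4.5_0005743g0040 was measured at 19.5, 20.8 and 16.6 CPM in L14, 18.0, 20.4 and 25.5 CPM in L15, 10.7, 9.02 and 12.4 CPM in L16, and 12.4, 7.20 and 13.1 CPM in the wild type. Its L16 libraries lay inside the wild type range, and the nearest library of L14 or L15 was L14 replicate 3.

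Lowered members had ratios to the wild type between 0.473 and 0.667 in L14 (median 0.615), between 0.492 and 0.665 in L15 (median 0.633), and between 0.771 and 1.23 in L16 (median 0.854). Only 1 of 13 was at 0.5 or less in both lines. Means ran from 2.05 to 121 CPM with a median of 8.09 CPM, and 6 of 13 had at least 10 CPM and 5 less than 5 CPM. The L16 mean lay below the wild type mean in 9 of 13 and above it in 4 by CPM (Nitab4.5_0000293g0090, Nitab4.5_0001238g0050, Nitab4.5_0003259g0090 and Nitab4.5_0007026g0020), while the edgeR fold change with TMM was negative in 11 and positive in 2. L16 covered a median of 41.7% of the distance from the wild type to the mean of L14 and L15. The selection favours the lower side here, as 467 of the 483 candidates lay below the band and 3 above it. The library medians were 0.583, 0.591 and 0.599 for L14, 0.601, 0.618 and 0.619 for L15, 0.808, 0.858 and 0.906 for L16, and 1.08, 0.906 and 0.992 in the wild type, for replicates 1, 2 and 3. All 3 L16 libraries were below the wild type range in 3 members (Nitab4.5_0002126g0080, Nitab4.5_0002548g0010 and Nitab4.5_0004063g0030), 2 were in 3 members, 1 was in 5, and none was in 2. In 4 of 13 the L16 libraries lay above all 6 of L14 and L15. These overlap counts too were not taken over all identifiers, and the limits on the means favour them.

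The most abundant lowered member, Nitab4.5_0002126g0080, was measured at 90.8, 89.2 and 99.3 CPM in L14, 80.2, 83.9 and 139 CPM in L15, 116, 137 and 137 CPM in L16, and 151, 178 and 149 CPM in the wild type. L16 formed a step between L14 and the wild type with no overlap on either side, while L15 replicate 3 lay above all of L16. Its log2 fold change was −0.91 ± 0.20 (SE) in L14, −0.74 ± 0.20 in L15 and −0.36 ± 0.19 in L16 against the wild type. Nitab4.5_0000786g0090 was measured at 106, 72.8 and 69.9 CPM in L14, 108, 84.5 and 97.6 CPM in L15, 165, 109 and 130.4 CPM in L16, and 126, 120.3 and 227 CPM in the wild type. The wild type mean was drawn up by replicate 3, and without that library, without wild type replicate 2 or without L16 replicate 1 it was not a member. Nitab4.5_0001668g0120 was measured at 47.9, 74.2 and 55.5 CPM in L14, 88.0, 85.9 and 75.8 CPM in L15, 102, 89.0 and 114 CPM in L16, and 93.1, 98.3 and 184 CPM in the wild type. Again wild type replicate 3 stood far above its other replicates, L15 and L16 nearly touched, and L14 was the line farthest from the wild type. It was lost with TMM scaling and when any of 5 libraries was left out.

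Nitab4.5_0007026g0020 had the lowest ratios among the lowered members taken over both lines, 0.497 in L14 and 0.492 in L15, with 1.06 in L16. It was measured at 1.94, 1.99 and 1.68 CPM in L14, 1.82, 2.04 and 1.69 CPM in L15, 3.04, 5.34 and 3.60 CPM in L16, and 2.72, 4.42 and 4.15 CPM in the wild type. The 6 libraries of L14 and L15 lay close together below all those of L16 and the wild type, which overlapped each other widely. Its counts were between 22 and 101 per library. The log2 fold change was −1.17 ± 0.29 (SE) in L14, −1.13 ± 0.29 in L15 and −0.02 ± 0.28 in L16 against the wild type. This member and Nitab4.5_0003259g0090, singled out after its values were seen, were the only lowered ones kept by both other scalings and without any one library. Nitab4.5_0003259g0090 was measured at 2.21, 2.48 and 1.81 CPM in L14, 3.06, 1.85 and 2.15 CPM in L15, 2.92, 3.91 and 5.58 CPM in L16, and 4.66, 4.05 and 3.16 CPM in the wild type. L15 replicate 1 lay inside the L16 range, so that L16 was not fully apart from the pair.

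A further pair of lowered members was named after their values were seen, since L16 stood above the wild type in the means. Nitab4.5_0000293g0090 was measured at 5.53, 5.60 and 3.71 CPM in L14, 5.66, 6.79 and 6.37 CPM in L15, 7.80, 12.5 and 14.7 CPM in L16, and 11.5, 7.56 and 9.41 CPM in the wild type. All L16 libraries were above those of L14 and L15, and replicates 2 and 3 were above the wild type range too. Nitab4.5_0001238g0050 was measured at 1.87, 1.18 and 1.72 CPM in L14, 1.87, 1.71 and 1.15 CPM in L15, 5.12, 1.32 and 1.16 CPM in L16, and 2.95, 2.18 and 2.34 CPM in the wild type. Here L16 replicate 1 alone placed the L16 mean at the wild type level, and the other L16 libraries lay among those of L14 and L15.

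**Figure D4:**
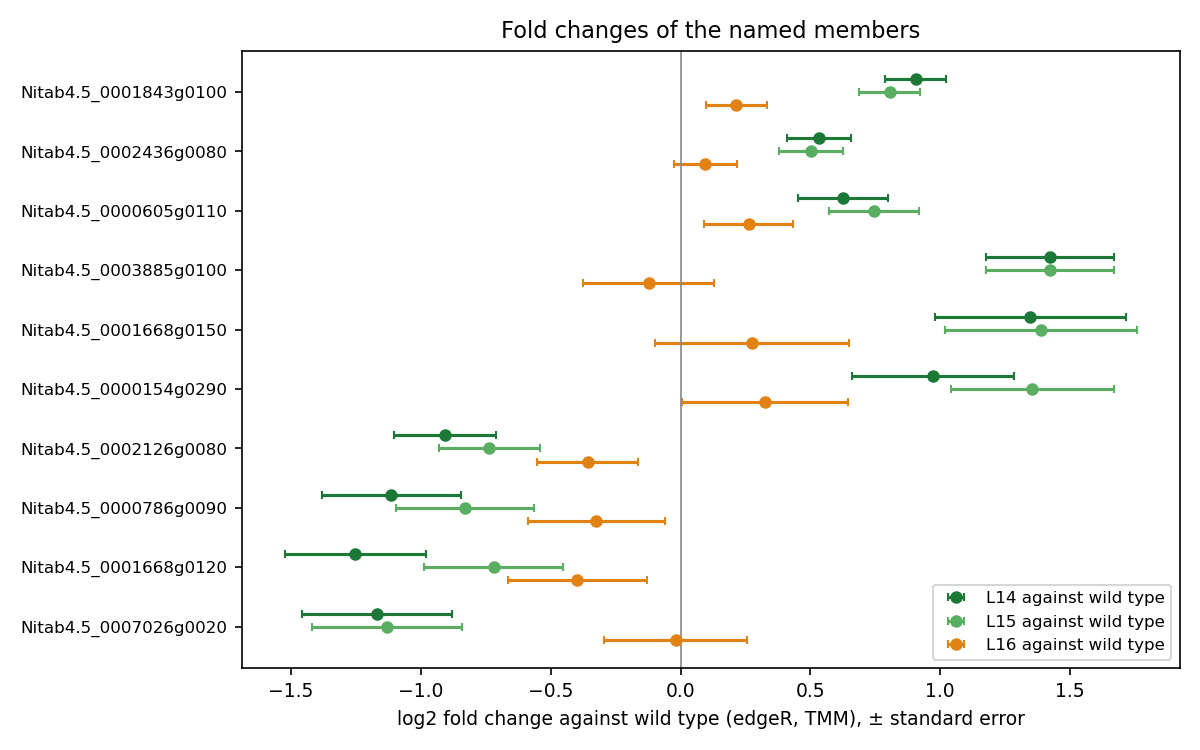
Log2 fold change against the wild type (horizontal axis, edgeR with TMM scaling, points with ± 1 standard error) of the 10 members named by rule in L14, L15 and L16. The L16 points of the 6 raised members lie between −0.12 and 0.33 and those of the 4 lowered members between −0.40 and −0.02, nearer to 0 than L14 and L15 in each.

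In edgeR's quasi-likelihood test over 18823 identifiers, all 58 members passed the filter on low counts. At a Benjamini-Hochberg adjusted p under 0.05, L14 was higher than the wild type in 15 of 45 raised members, where 6.61% of all tested were called higher, and lower in 10 of 13 lowered members, where 5.94% of all were called lower. L15 was higher in 19 of 45 raised members, against 8.5% of all, and lower in 7 of 13 lowered members, against 6.85% of all. Both lines were called in 11 of 45 raised and 7 of 13 lowered members, and neither line in 22 and 3. The share of all tested identifiers called in both lines was not counted. Because the members were selected on these ratios, these counts only describe how many of them the model resolves. Among the raised, the count in L14 was 25 with the replicate number as a block, 24 with no filter and 20 with DESeq2, and in L15 it was 23, 20 and 20. The shares of all tested identifiers were not counted under these settings. L16 was called against the wild type in 0 of 58 members, while 14.6% of all tested were called higher and 12.7% lower. Without adjustment, 1 raised and 2 lowered members had a p under 0.05 in edgeR, and DESeq2 called 0. For L16 against the wild type, the shares of all tested identifiers without adjustment or with DESeq2 were not counted. The lowest adjusted p in edgeR was 0.126 among the raised and 0.0553 among the lowered. The band on L16 set the count of 0 of 58, so that count does not show that L16 equals the wild type. The median standard error of the L16 log2 fold change was 0.23 over the raised members, whose median fold change was 0.19, and 0.25 over the lowered members, whose median fold change was −0.30.

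In the direct comparison of the lines, few members passed the adjusted threshold. L16 was lower than L14 in 2 of 45 raised members, where 0.574% of all tested were called lower, and higher in 1 of 13 lowered members, where 1.16% were called higher. L16 was lower than L15 in 2 of 45 raised members, where 0.218% were called lower, and higher in 0 of 13 lowered members, where 0.494% were called higher. Without adjustment, a p under 0.05 was found in 26 of 45 raised and 6 of 13 lowered members against L14, and in 25 of 45 and 3 of 13 against L15. DESeq2 called 10 of the 58 members against L14 and 6 against L15. The shares of all tested identifiers were not counted without adjustment or with DESeq2. As the rule chose the members on these ratios, nothing is read from those counts. The 2 raised members called by edgeR at the adjusted threshold were Nitab4.5_0001843g0100 and Nitab4.5_0003885g0100 in both comparisons, and the lowered one was Nitab4.5_0000293g0090. The median log2 fold change of L16 against L14 was −0.47 over the raised and 0.59 over the lowered members, and against L15 it was −0.44 and 0.43. All 45 raised members were below L14 and below L15 in L16, and all 13 lowered members above, which the rule largely fixes. The other members were not called by edgeR at the adjusted threshold, which does not show that L16 equals L14 or L15 in them.

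The spread by replicate number and the slope on the spike-in component were also fitted, both with genotype in the model. The rule did not use these terms, but its condition of no overlap limits the spread of L14, L15 and the wild type, so they are given as descriptions too. No member differed by replicate number at an adjusted p under 0.05, and neither did any other of the 18823 tested identifiers (0%). Unadjusted, 4 of 45 raised (8.89%) and 3 of 13 lowered members (23.1%) had a p under 0.05, against 12.9% of all tested, and a DESeq2 likelihood ratio test called 1 member. For the spike-in component, 2 of 58 members were called, against 2.58% of all tested. These were Nitab4.5_0001231g0050 among the raised, with a slope of 0.38 log2 units per unit of the component, and Nitab4.5_0000220g0170 among the lowered, with 0.30. Both slopes were positive, and the component itself was highest in the wild type. Unadjusted, 9 of 45 raised (20.0%) and 5 of 13 lowered members (38.5%) had a p under 0.05, against 18.9% of all tested.

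Over the members, the spread within genotypes was largest in L16. The median coefficient of variation of the raised members was 14.5% in L14, 13.2% in L15, 23.2% in L16 and 18.5% in the wild type. For the lowered members it was 16.24%, 13.5%, 21.1% and 16.31% in the same order. Over all 12868 identifiers the medians were 14.21% in L14, 13.2% in L15, 18.4% in L16 and 18.7% in the wild type. The rule used the libraries of L14, L15 and the wild type one by one but those of L16 as a mean only, and the spread of L16 was wider over the members than over all identifiers.

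By position, the 58 members lay on 57 scaffolds of the assembly, as read from their identifiers. The single scaffold with more than 1 member was 0001668, which holds the raised Nitab4.5_0001668g0150 and the lowered Nitab4.5_0001668g0120. Of its 18 listed identifiers, 7 had a mean of at least 2 CPM. The one listed next to g0150, Nitab4.5_0001668g0160, was not a member, but reached 1.79 times the wild type in L14 and 2.01 times in L15, with 0.973 times in L16. It was measured at 8.71, 7.27 and 5.29 CPM in L14, 7.37, 9.21 and 7.37 CPM in L15, 2.502, 4.79 and 4.30 CPM in L16, and 5.66, 2.30 and 3.94 CPM in the wild type. L14 replicate 3 lay below wild type replicate 1, which kept it out. Another on the scaffold, Nitab4.5_0001668g0100, was higher in the 3 lines alike, at 2.28 times the wild type in L14, 2.26 times in L15 and 2.48 times in L16. Neighbours can share reads at their ends, and the sources used here do not state whether counting used the strand.

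Over all members, 11 of the 39 neighbours of raised members with at least 2 CPM (28.2%) had ratios of at least 1.5 in both L14 and L15. In 10 of these 11, the L16 ratio was outside the band, as it was for 148 of the 160 such neighbours of all identifiers raised in L14 and L15 and for 1354 of 1419 over all identifiers. The corresponding share of neighbours shifted in L14 and L15 was 15.9% (160 of 1008) for the neighbours of all 1289 identifiers raised in L14 and L15, and 13.9% for the neighbours of all 12868. Among neighbours of lowered members, 2 of 12 (16.7%) were at 0.67 or less in both lines, against 7.73% for all 483 and 4.77% for all 12868. These shares are descriptions of small numbers. The 1 such neighbour of a raised member with L16 inside the band was Nitab4.5_0001668g0160.

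Membership depended on single libraries and on the limits. The members just inside the limits for raised were Nitab4.5_0003952g0080 with an L14 ratio of 1.501 and Nitab4.5_0000969g0030 with an L16 ratio of 1.298, and just outside lay Nitab4.5_0000864g0130 with an L14 ratio of 1.488 and Nitab4.5_0000655g0030 with an L16 ratio of 1.301. For the lowered side the nearest inside were Nitab4.5_0000220g0170 with an L14 ratio of 0.667 and Nitab4.5_0004063g0030 with an L16 ratio of 0.771, and outside lay Nitab4.5_0001894g0060 with 0.672 and Nitab4.5_0000825g0040 with 0.764. Of the 45 raised members, 18 were kept with TMM scaling and 17 with DESeq2 size factors, and of the 13 lowered members 10 and 9. Leaving out one of the wild type replicates 1, 2 and 3 removed 23, 21 and 16 raised and 7, 6 and 5 lowered members. Leaving out L16 replicate 3 removed 22 raised and 3 lowered members, while L16 replicate 1 removed 6 and 4 and L16 replicate 2 removed 3 and 3. Any one library of L14 or L15 removed between 2 and 11 raised and between 0 and 4 lowered members. Kept throughout, with all 12 libraries left out in turn and with both other scalings, were 2 raised and 2 lowered members, the 4 described above.

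**Figure D5:**
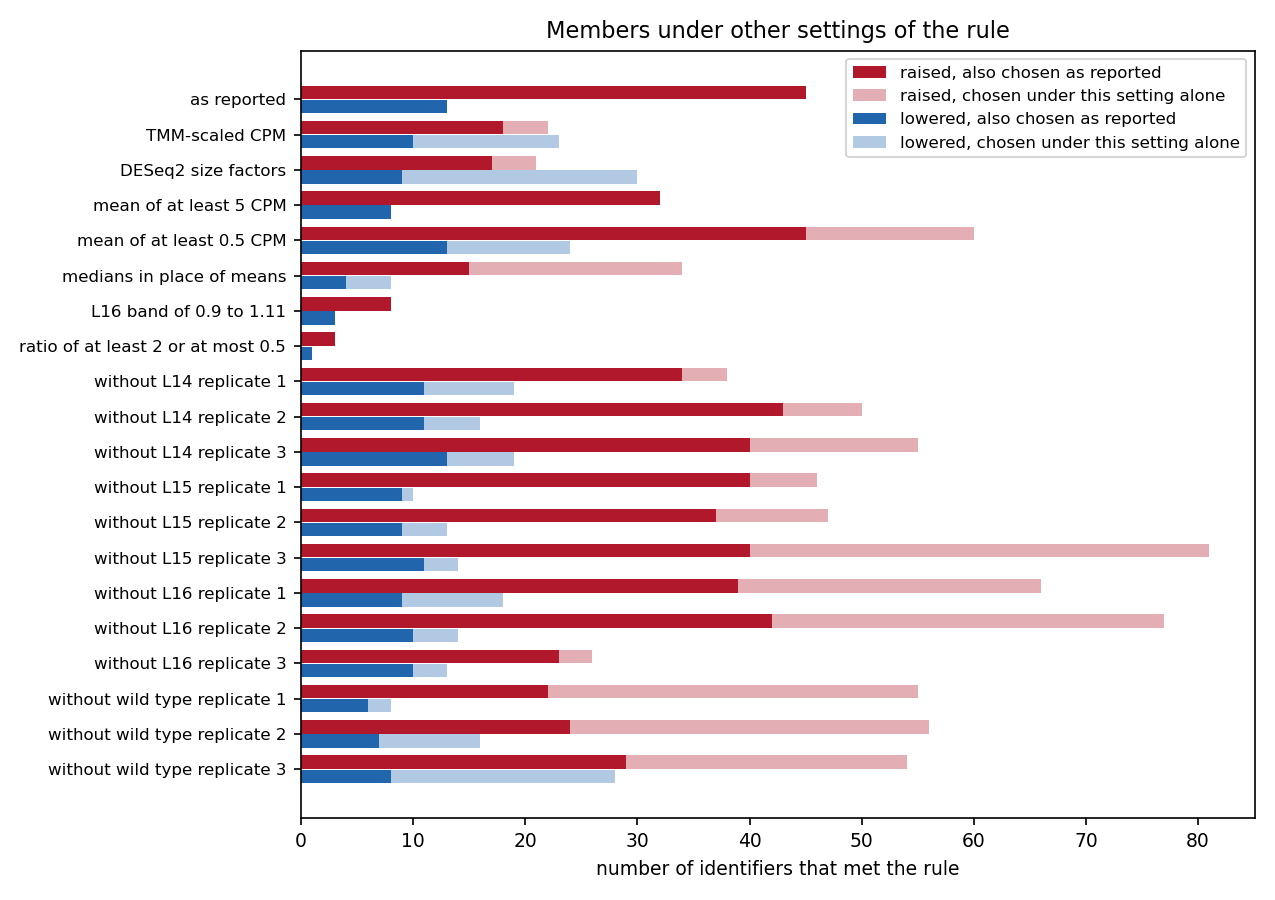
Number of identifiers that met the rule (horizontal axis) under each setting, for raised (red) and lowered (blue) identifiers; dark bars are those also chosen as reported, pale bars those chosen under that setting alone. Raised members numbered 45 as reported, 22 with TMM scaling and 26 without L16 replicate 3, and lowered members 13, 23 and 13.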

How the data were processed

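Leaf RNA of L14, L15, L16 and the wild type was sequenced at the 3′ end in 12 libraries in a single run. Alignment by the authors used STAR and the NiTAB 4.5 assembly, and the counts of each library were deposited raw; the counting program, its use of strand and versions were not given in the sources used here. They also list DESeq2, whose results were not used. The 99 spike-in sequences and the 5 summary lines, which held between 54.2% and 58.7% of the listed reads, were left out of library totals. Genotypes and replicate numbers came from the labels. Members were found by CPM, with means and no pseudocount. Tests used edgeR 4.0.16 in R 4.3.3 (quasi-likelihood, TMM, filterByExpr with a minimum of 10 counts, all 12 libraries, genotype as factor, Benjamini-Hochberg over 18823 identifiers), with DESeq2 1.42.0 as an alternative. Of these, only the edgeR genotype fit was tried on simulated counts, for L16 against the wild type. DESeq2 and the models with replicate number or the spike-in component were not. The spike-in component used log2 CPM with a prior count of 2. Members named were, in each direction, the 3 with the highest mean CPM and the 3 with the largest mean log2 ratio over L14 and L15; others are said to be chosen after their values were seen. The members and lists were chosen with earlier results of these data known. Other scalings, limits, filters, averages, a replicate block and each library left out were tried. Each p-value sets a fitted difference or slope against the spread between these libraries.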

Additional observations from a re-analysis of the deposited data

Results flagged for a closer look

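Among the members, 3 were called in L16 against L14 and 2 in L16 against L15 by edgeR at an adjusted p under 0.05, which is a difference between lines in their shift from the same wild type libraries. They were listed because the contrast of the lines tests that difference directly. The rule had already asked for L14 and L15 to be far from the wild type and L16 near to it, so these calls add no independent evidence. In Nitab4.5_0003885g0100 the log2 fold change was −1.54 ± 0.25 (SE) in L16 against L14 and −1.55 ± 0.25 in L16 against L15. In Nitab4.5_0001843g0100 it was −0.69 ± 0.12 and −0.59 ± 0.12. In both members the 3 libraries of L16 lay below the 3 of L14 and the 3 of L15. In Nitab4.5_0000293g0090, called against L14 only, it was 1.33 ± 0.25 against L14 and 0.93 ± 0.25 against L15.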

How the results depend on the processing

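Raised members numbered 45 and lowered members 13 by CPM. These became 22 and 23 with TMM scaling, 21 and 30 with DESeq2 size factors, 8 and 3 with an L16 band from 0.9 to its reciprocal, and 3 and 1 with ratios of at least 2 or at most 0.5. Lowered members numbered 8 with a mean of at least 5 CPM and 24 with a mean of at least 0.5 CPM. With medians in place of means there were 34 raised and 8 lowered members, of which 15 and 4 were also members as reported. With each library left out in turn, raised members numbered between 26 (without L16 replicate 3) and 81 (without L15 replicate 3), and lowered members between 8 (without wild type replicate 1) and 28 (without wild type replicate 3). In the same leave-outs, members called numbered between 15 and 32 in L14 and between 10 and 33 in L15 against the wild type, between 0 and 2 in L16 against the wild type, between 2 and 9 in L16 against L14, and between 0 and 3 in L16 against L15.

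Members called in L16 against L14 were 3, and numbered 10 with DESeq2, 5 with upper-quartile factors, 12 with no filter on low counts and 5 with only the 6 libraries compared. Against L15 they were 2, and numbered 6 with DESeq2, 6 with no filter and 4 with only the 6 libraries compared. Against the wild type, L16 was called in 0 members and in 1 with upper-quartile factors. Replicate number called 0 members, 6 with no filter and 1 with the DESeq2 likelihood ratio test. With the replicate block, L16 was called in 1 member against the wild type, 11 against L14 and 4 against L15. The shares of all tested identifiers were not counted under any of these other settings. The deviations of same-numbered libraries from their genotype means had correlations between −0.0499 and 0.239. For replicates 1, 2 and 3 these were 0.239, −0.0499 and 0.158 between L16 and L14, and 0.164, 0.0561 and 0.188 between L16 and L15. Between the lines and the wild type they lay between −0.0194 and 0.109, and L14 was not set against L15. The main tests hold no term for replicate number, and counts with it as a block are given beside them. Of 50 alternatives other than leave-outs, 26 stayed within 1.5 times the reported count. The causes were not tested.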
